A study of Mus musculus with 15 samples.

Results

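The genes described here encode the network proteins of epithelial basement membranes outside the hemidesmosomal laminin. They are the collagen IV genes Col4a1 and Col4a2, the nidogen genes Nid1 and Nid2, the heparan sulfate proteoglycan genes Hspg2 (perlecan) and Agrn (agrin), and the laminin chain genes Lama5, Lamb1, Lamb2 and Lamc1. Their rows were picked out by gene symbol, from a set of names drawn up with earlier results of these data known, and all 10 of 10 were found among the 24421 symbols of each deposited table. RNA came from an established cell line derived from bile ducts of adult C57BL/6 mice, with the genotype ITR-CreERT2;Klf5flox/flox, read by single-end RNA-seq. Cells were given 4-OH Tamoxifen, which activates the Cre recombinase, and read at 12 h (4 libraries) or 24 h (4 libraries). Control cells were given ethanol (EtOH control) and read at 12 h (3 libraries, with no replicate 2 among the samples) or 24 h (4 libraries). All 4 groups carry the recombinase and the floxed alleles of Klf5, a Krüppel-like transcription factor, so what tamoxifen, the active recombinase and the loss of Klf5 each did cannot be told apart. All cells are of 1 line, the series text names both structures grown in vitro in 3D and structures in vivo, and the labels do not spell out ITR. Nor do they say that libraries of a group came from separate cultures, so the p-values rest on a spread between libraries that may be technical.

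Basement membranes are thin sheets on which epithelia such as the bile duct lining rest. Laminin trimers, each of an alpha, a beta and a gamma chain, assemble at the cell surface into a first network, and collagen IV trimers, built mainly of a pair of alpha1 chains and a single alpha2 chain, form the second, covalently crosslinked network. Nidogens and perlecan bind both networks and link them, and agrin ties laminin to cell surface receptors. Lama5 is the alpha chain typical of mature epithelial basement membranes. It pairs with Lamb1 or Lamb2 and with Lamc1.

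Per gene and time, the files give the authors' test of tamoxifen against ethanol, without the values of single libraries. Summed over genes, the means in the authors' deposited tables come to 13891352 normalised counts at 12 h and 11844187 at 24 h. Klf5 stood in the authors' deposited table at a log2 fold of -1.29 (SE 0.23) at 12 h and -1.72 (SE 0.08) at 24 h. Of 8 biliary markers, 8 were above 0 at both times, with Epcam lowest at means of 15.7 and 9.56 normalised counts and Spp1 highest at 25377 and 14407 in the authors' deposited tables, and their derived sums were 60886 in tamoxifen and 66884 in ethanol at 12 h and 29591 in tamoxifen and 29219 in ethanol at 24 h. Fibroblast and stellate markers were near 0. At 12 h 3 of 10 were above 0, with derived sums of 30.0 in tamoxifen and 31.4 in ethanol, and at 24 h 5 of 10, with sums of 13.7 in tamoxifen and 11.0 in ethanol, while Col1a2, Col3a1, Dcn and Lum were at 0 at both times. Endothelial markers summed to at most 3.57 normalised counts in any group, with Cdh5, Emcn, Lyve1 and Stab2 at 0 at both times. Immune markers summed to 82.0 in tamoxifen and 80.9 in ethanol at 12 h and to 74.0 in tamoxifen and 82.3 in ethanol at 24 h, nearly all from Cd68, with Adgre1 and Cd3e at 0. Hepatocyte markers summed to 2107 in tamoxifen and 1811 in ethanol at 12 h and to 736 in tamoxifen and 700 in ethanol at 24 h. These sums came nearly all from Apoa1 and Ttr, while Alb had means of 3.68 at 12 h and 1.48 at 24 h. Cyp2e1 and Cyp3a11 were at 0. The part of all these markers in the results below was not tested.

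At 24 h the network genes moved in opposite directions. Col4a1 and Hspg2 rose, Nid1, Lamb2 and Lamc1 fell, and Col4a2, Nid2, Agrn, Lama5 and Lamb1 did not reach an adjusted p under 0.05 by the authors' Wald test. That is 5 of 10 genes called, against 12.4% of all 11648 genes with an adjusted p, 5.9% higher and 6.52% lower. Since 9 of the 10 genes have means above 2000 normalised counts, a closer background is that of genes with such means, of which 23.8% were called at 24 h, 8.15% higher and 15.6% lower. The called rises were of 24.5% each and the called changes downward were between -20.9% and -11.3%. The median log2 fold of the 10 genes was 0.12, beside -0.00040 over all genes with an adjusted p. It lies between the folds of Col4a2 and Agrn, which were not called. The derived levels of the 10 genes summed to 39289 normalised counts in tamoxifen and 40123 in ethanol at 24 h, so the sum was not higher in tamoxifen. Over all genes the derived sum at 24 h was also lower in tamoxifen, 11752572 against 11935802 in ethanol. At 12 h the median log2 fold of the 10 genes was -0.06. At 12 h 0 of the 10 genes were called in the authors' Wald test and 0 had an unadjusted p under 0.05, against 0.943% of 13044 genes called, 0.215% higher and 0.728% lower, and 1.59% of genes with means of at least 2000, 0.307% higher and 1.29% lower. In bulk RNA, fewer cells of a type and less RNA per cell cannot be told apart.

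**Figure D1:**
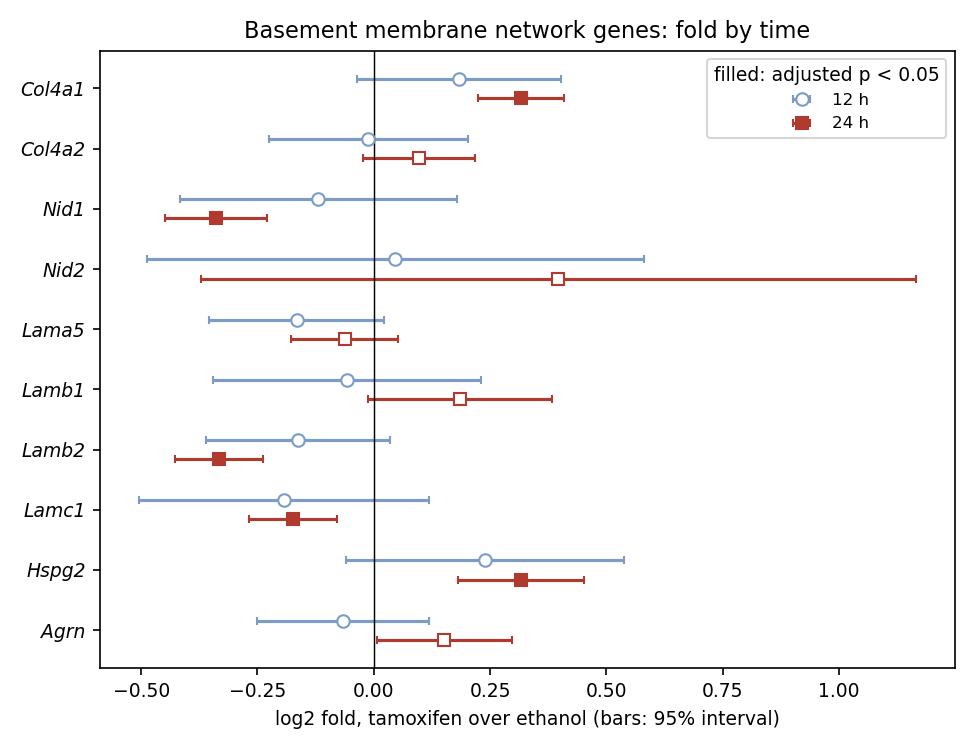
Log2 fold of tamoxifen over ethanol (x axis) for each gene (y axis) at 12 h (circles) and 24 h (squares), with 95% intervals as bars and filled symbols where the authors' adjusted p was under 0.05. The 5 filled symbols are all at 24 h, with Col4a1 at 0.32 and Hspg2 at 0.32 on the right and Nid1 at -0.34, Lamb2 at -0.33 and Lamc1 at -0.17 on the left.

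All 10 genes were expressed, and 9 of them strongly. Together they held 0.308% of all normalised counts at 12 h and 0.335% at 24 h. Levels were compared between genes as mean normalised counts per kilobase of annotated exon, within a time. At 24 h the order of this level, from high to low, was Nid1 at 921, Lama5 at 766, Agrn at 644, Lamb2 at 575, Lamc1 at 546, Col4a1 at 464, Col4a2 at 324, Lamb1 at 262, Hspg2 at 165 and Nid2 at 4.22 counts per kilobase. Among neighbours in this order, Lamb2 and Lamc1 did not differ by more than the spread between libraries, 1 standard deviation of the gap as derived from the authors' SEs. At 12 h Lama5 came first with 1020 counts per kilobase, followed by Agrn with 791, Nid1 with 724, Lamb2 with 663 and Col4a1 with 621. Of these, the levels from Agrn to Col4a1 did not differ between neighbours beyond that spread. Below them at 12 h stood Col4a2 at 412, Lamc1 at 327, Lamb1 at 269, Hspg2 at 141 and Nid2 at 13.2 counts per kilobase, and Lamc1 and Lamb1 lay within the spread. The level of Lamb1 depends on the length used: over its longest transcript of 5784 bases instead of 9917 bases of all annotated exons, it was 449 counts per kilobase at 24 h and 461 at 12 h.

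**Figure D2:**
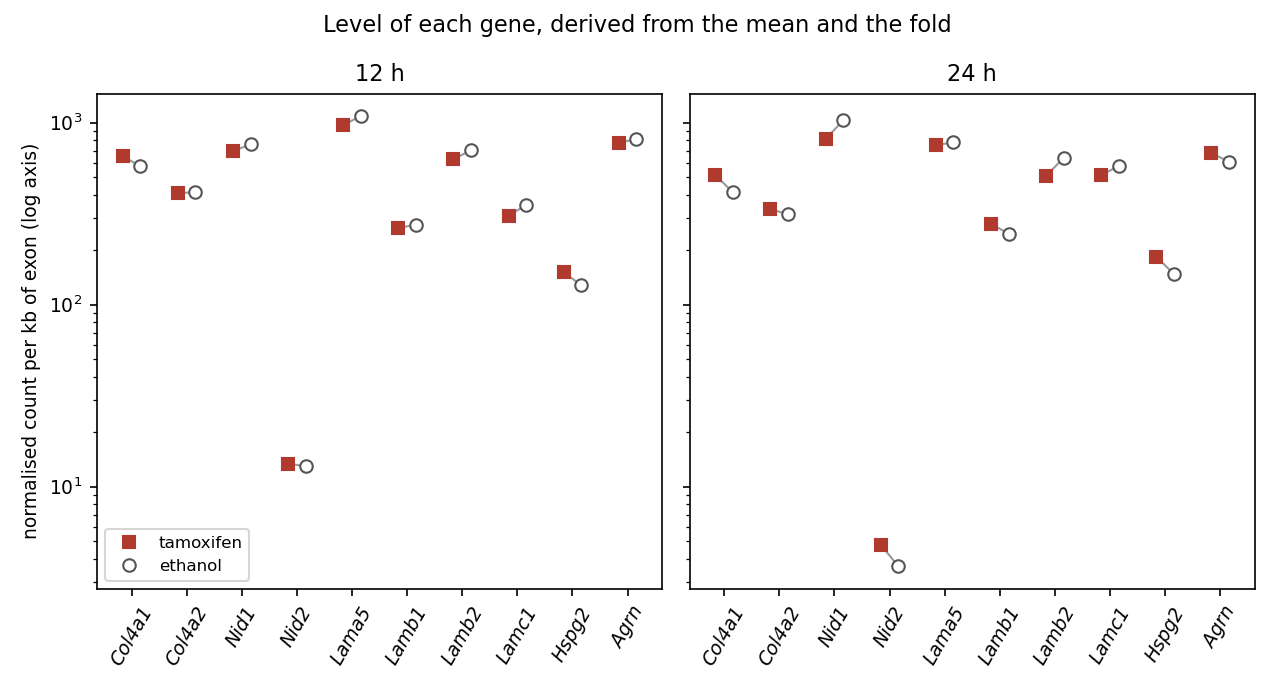
Normalised counts per kilobase of exon on a log axis for each gene at 12 h (left) and 24 h (right), with the level in tamoxifen (red squares) left of that in ethanol (open circles), both derived from the authors' mean and fold. Nid2 lies far below the other 9 genes, with 4.80 in tamoxifen and 3.64 in ethanol at 24 h.

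Collagen IV was considered first. Col4a1 and Col4a2 lie head to head on chromosome 8 of GRCm38, Col4a1 on the reverse strand from 11198423 to 11312826 and Col4a2 on the forward strand from 11312805 to 11449287, so that their annotated 5′ ends overlap by 22 bases. Both genes are transcribed from this stretch, and only Col4a1 was called at 24 h. For this reason the RefSeq windows (GRCm38.p6) of 250 bases before and 50 bases after each start are shown. They are chr8:11312777-11313076 on the reverse strand for Col4a1 and chr8:11312555-11312854 on the forward strand for Col4a2, and 78 bases are common to both. Capitals mark matches, on either strand, to CACCC or CCCNCCC, letters that Krüppel-like factors are known to prefer. A run can match both motifs.
Col4a1: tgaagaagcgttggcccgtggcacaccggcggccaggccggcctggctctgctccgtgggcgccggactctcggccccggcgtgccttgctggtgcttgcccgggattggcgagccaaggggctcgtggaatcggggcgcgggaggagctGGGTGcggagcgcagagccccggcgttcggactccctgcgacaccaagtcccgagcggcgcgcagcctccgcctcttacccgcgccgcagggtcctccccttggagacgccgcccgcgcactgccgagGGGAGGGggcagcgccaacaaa
Col4a2: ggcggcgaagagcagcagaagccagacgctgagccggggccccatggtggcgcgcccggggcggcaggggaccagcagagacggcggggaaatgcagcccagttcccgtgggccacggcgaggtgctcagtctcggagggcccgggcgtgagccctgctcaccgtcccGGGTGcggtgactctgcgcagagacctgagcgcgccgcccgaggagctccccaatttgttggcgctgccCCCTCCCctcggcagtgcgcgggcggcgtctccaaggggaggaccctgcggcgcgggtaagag
The CCCNCCC match, from 11312792 to 11312798, is the same site in both windows, 13 bases before the start site of Col4a2 and 28 bases after that of Col4a1. Each window also holds 1 CACCC match of its own. Among all 32851 RefSeq promoter windows of this length, 57.5% hold CACCC and 48.1% hold CCCNCCC.

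Col4a1 rose at 24 h. Its level, derived from the authors' mean and fold, was 3842 normalised counts in tamoxifen and 3087 in ethanol. The authors' deposited table gives Col4a1 a log2 fold of 0.32 (SE 0.05), 24.5% higher with a 95% interval of 16.7% to 32.7%, and an adjusted p of 1.83e-09 in the Wald test. Col4a2 had 2217 normalised counts in tamoxifen and 2073 in ethanol at 24 h. By the authors' Wald test its log2 fold of 0.10 (SE 0.06) had an adjusted p of 0.343, and the interval of -1.58% to 16.2% excludes a rise as large as the estimate for Col4a1. The fold of Col4a1 exceeded that of Col4a2 by 0.22 on the log2 scale. With both SEs simply added, the widest error that a shared set of libraries allows, the 95% interval of this difference is 0.0064 to 0.43. Per kilobase, Col4a1 stood at 1.54 times Col4a2 in tamoxifen and 1.32 times in ethanol at 24 h. Neither gene was called at 12 h, when Col4a1 had 4883 normalised counts in tamoxifen and 4301 in ethanol, a log2 fold of 0.18 (SE 0.11), and Col4a2 had 2718 in tamoxifen and 2740 in ethanol, a log2 fold of -0.01 (SE 0.11), in the authors' deposited table. The ratio of their levels per kilobase at 12 h was 1.59 in tamoxifen and 1.39 in ethanol. The difference of their folds at 12 h was 0.19, with an interval from -0.24 to 0.63 that includes 0.

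The nidogens, glycoproteins that bridge laminin and collagen IV, are represented almost wholly by Nid1. Both are on the forward strand, Nid1 on chromosome 13 from 13437551 to 13512269 and Nid2 on chromosome 14 from 19751265 to 19811787. Nid1 fell at 24 h. Its derived level was 5648 normalised counts in tamoxifen and 7143 in ethanol. The log2 fold of Nid1 in the authors' deposited table was -0.34 (SE 0.06), a change of -20.9%, and the adjusted p was 7.68e-08 in the Wald test. The interval of the change in Nid1 runs from -26.7% to -14.7%. Of the 10 genes, Nid1 had the highest level per kilobase at 24 h in ethanol, 1029, and also in tamoxifen, 813. At 12 h Nid1 was not called, with 4851 normalised counts in tamoxifen and 5269 in ethanol and a log2 fold of -0.12 (SE 0.15) in the authors' deposited table.

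Nid2 was the 1 weakly expressed gene of the 10. It had 24.8 normalised counts in tamoxifen and 18.8 in ethanol at 24 h, and 69.1 in tamoxifen and 66.9 in ethanol at 12 h. Its log2 fold of 0.40 (SE 0.39) at 24 h in the authors' deposited table has an interval of -22.7% to 124%, which includes a change of the size seen in Nid1. At 12 h its log2 fold was 0.05 (SE 0.27) in the authors' deposited table. Counting error alone would give 56.2% of the SE of Nid2 at 24 h, against 17.9% to 36.9% for the other 9 genes. Of the annotated exon bases of Nid2, 8.45% overlap Rtraf on the opposite strand, and the library kit does not mark strand, so reads from both genes could be counted there.

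The promoter window of Nid1 is shown with those of Lamb2 and Hspg2, since these are the other called genes with an entry in the RefSeq table, with capitals as for collagen IV. They are chr13:13437352-13437651, chr9:108479612-108479911 and chr4:137468553-137468852, all on the forward strand.
Nid1: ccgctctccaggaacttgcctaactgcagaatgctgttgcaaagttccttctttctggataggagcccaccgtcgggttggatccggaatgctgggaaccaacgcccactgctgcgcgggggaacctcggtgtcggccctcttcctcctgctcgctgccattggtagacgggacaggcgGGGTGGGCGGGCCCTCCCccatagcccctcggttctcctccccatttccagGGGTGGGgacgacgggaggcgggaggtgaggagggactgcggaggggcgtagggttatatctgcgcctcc
Lamb2: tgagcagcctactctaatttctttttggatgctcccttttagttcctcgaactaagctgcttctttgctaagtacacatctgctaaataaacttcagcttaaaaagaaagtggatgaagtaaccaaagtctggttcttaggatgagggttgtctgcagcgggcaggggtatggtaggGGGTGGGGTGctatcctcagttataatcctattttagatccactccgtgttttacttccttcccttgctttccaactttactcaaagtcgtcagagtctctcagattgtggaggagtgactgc
Hspg2: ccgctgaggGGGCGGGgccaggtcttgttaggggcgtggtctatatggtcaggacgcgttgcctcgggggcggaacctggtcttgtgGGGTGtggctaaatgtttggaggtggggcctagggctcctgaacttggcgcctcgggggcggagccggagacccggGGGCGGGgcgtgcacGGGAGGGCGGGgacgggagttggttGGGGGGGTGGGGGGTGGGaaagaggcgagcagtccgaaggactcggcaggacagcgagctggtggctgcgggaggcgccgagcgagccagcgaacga
Nid1, which fell, holds 2 CACCC and 4 CCCNCCC matches within a window of 64.7% G and C. Lamb2, which also fell, holds 2 CACCC matches and 1 CCCNCCC match in a window of 44.0% G and C. Hspg2, which rose, holds 3 and 7 in a window of 70.3% G and C. Whether matches go with the folds was not tested. Among the genes not called, the Lama5 window holds 0 CACCC and 2 CCCNCCC matches, that of Lamb1 1 and 1, and the first of the pair listed for Agrn 2 and 15. The median window of all promoters has 52.7% G and C. TATAAA, searched for comparison, was found in none of the 9 windows of the 8 genes with an entry and in 13.6% of all promoters. Lamc1 and Nid2 have no entry.

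The laminin chains did not all move alike. Lamb2, a beta chain, fell at 24 h, and so did Lamc1, the gamma chain common to most laminins. Lama5, on chromosome 2 from 180176373 to 180225859 on the reverse strand, and Lamb1, the other beta chain, at 31265234 to 31329644 of chromosome 12 (forward strand), were not called. The Lamb2 gene spans 108479736 to 108490530 of chromosome 9, forward strand. Its derived level at 24 h was 3098 normalised counts in tamoxifen and 3900 in ethanol. In the authors' deposited table the log2 fold of Lamb2 was -0.33 (SE 0.05), a change of -20.6% with an interval of -25.6% to -15.2%, and its adjusted p of 5.15e-10 in the Wald test was the smallest of the 10 genes.

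Lamb1 had 2762 normalised counts in tamoxifen and 2428 in ethanol at 24 h. By the authors' Wald test its log2 fold of 0.19 (SE 0.10) had an adjusted p of 0.251 and an interval of -0.897% to 30.5%. The SE of Lamb1 was 2.02 times the median of genes of similar mean, the largest such ratio of the 10 genes at 24 h. The fold of Lamb1 exceeded that of Lamb2 by 0.52 on the log2 scale at 24 h. With both SEs added, the interval of this difference is 0.22 to 0.81. Per kilobase, the ratio of Lamb1 to Lamb2 was 0.547 in tamoxifen and 0.382 in ethanol at 24 h, against 0.419 in tamoxifen and 0.39 in ethanol at 12 h. The size of this ratio depends on the lengths used: over the longest transcripts, an alternative added after seeing the data, it was 0.868 in tamoxifen and 0.606 in ethanol at 24 h, and 0.665 in tamoxifen and 0.618 in ethanol at 12 h. The difference of the folds at 12 h was 0.11, with an interval from -0.38 to 0.59. At 12 h Lamb2 stood at a log2 fold of -0.16 (SE 0.10) and Lamb1 at -0.06 (SE 0.15), neither called, in the authors' deposited table.

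Lamc1 lies on chromosome 1 from 153218922 to 153332786 on the reverse strand. It had 4249 normalised counts in tamoxifen and 4791 in ethanol at 24 h. Its change was the smallest of the called ones, a log2 fold of -0.17 (SE 0.05) in the authors' deposited table, a change of -11.3% with an interval of -16.9% to -5.31%, and an adjusted p of 0.0051 in the Wald test. This interval does not lie wholly beyond 0.1 on the log2 scale, as those of Nid1 and Lamb2 do and as 4.11% of all tested genes do among called falls. The fold of Lamc1 at 12 h was of similar size, -0.19, but with an SE of 0.16 it was not called in the authors' deposited table. The derived level at 12 h was 2551 normalised counts in tamoxifen and 2916 in ethanol. Both groups were therefore lower at 12 h than at 24 h in tables that were normalised separately, a gap between times that was not tested.

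Lama5 had the highest mean of the 10 genes. It stood at 8531 normalised counts in tamoxifen and 8907 in ethanol at 24 h, and at 11043 in tamoxifen and 12385 in ethanol at 12 h. Its log2 folds in the authors' deposited tables were -0.17 (SE 0.10) at 12 h and -0.06 (SE 0.06) at 24 h. The interval at 24 h, -11.6% to 3.73%, excludes a fall as large as the estimate for Lamb2 but includes the estimate for Lamc1. The fold of Lamc1 minus that of Lama5 was -0.11 on the log2 scale at 24 h. With both SEs added, its interval is -0.32 to 0.10, which includes 0. At 12 h this difference was -0.03, with an interval from -0.53 to 0.47.

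Perlecan and agrin are large proteins that carry heparan sulfate chains. Hspg2, at 137468769 to 137570630 of chromosome 4 (forward strand), rose at 24 h. Its derived level was 2622 normalised counts in tamoxifen and 2106 in ethanol. The authors' deposited table gives Hspg2 a log2 fold of 0.32 (SE 0.07), 24.5% higher with an interval of 13.4% to 36.8%, and an adjusted p of 0.00013 in the Wald test. Hspg2 also had the largest positive log2 fold of the 10 genes at 12 h, 0.24 (SE 0.15), not called, with 2155 normalised counts in tamoxifen and 1826 in ethanol in values derived from the authors' deposited table.

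Agrn lies on chromosome 4 from 156165290 to 156197488 on the reverse strand. It had 6296 normalised counts in tamoxifen and 5669 in ethanol at 24 h, and 7201 in tamoxifen and 7537 in ethanol at 12 h. Its log2 fold at 24 h was 0.15 (SE 0.07) in the authors' deposited table. With an unadjusted p of 0.0407 and an adjusted p of 0.182 in the Wald test, Agrn did not pass the threshold, and its SE was 1.55 times that of genes of similar mean. At 12 h its log2 fold was -0.07 (SE 0.09) in the authors' deposited table. The fold of Hspg2 exceeded that of Agrn by 0.17 at 24 h, with an interval of -0.12 to 0.45 that includes 0.

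**Figure D3:**
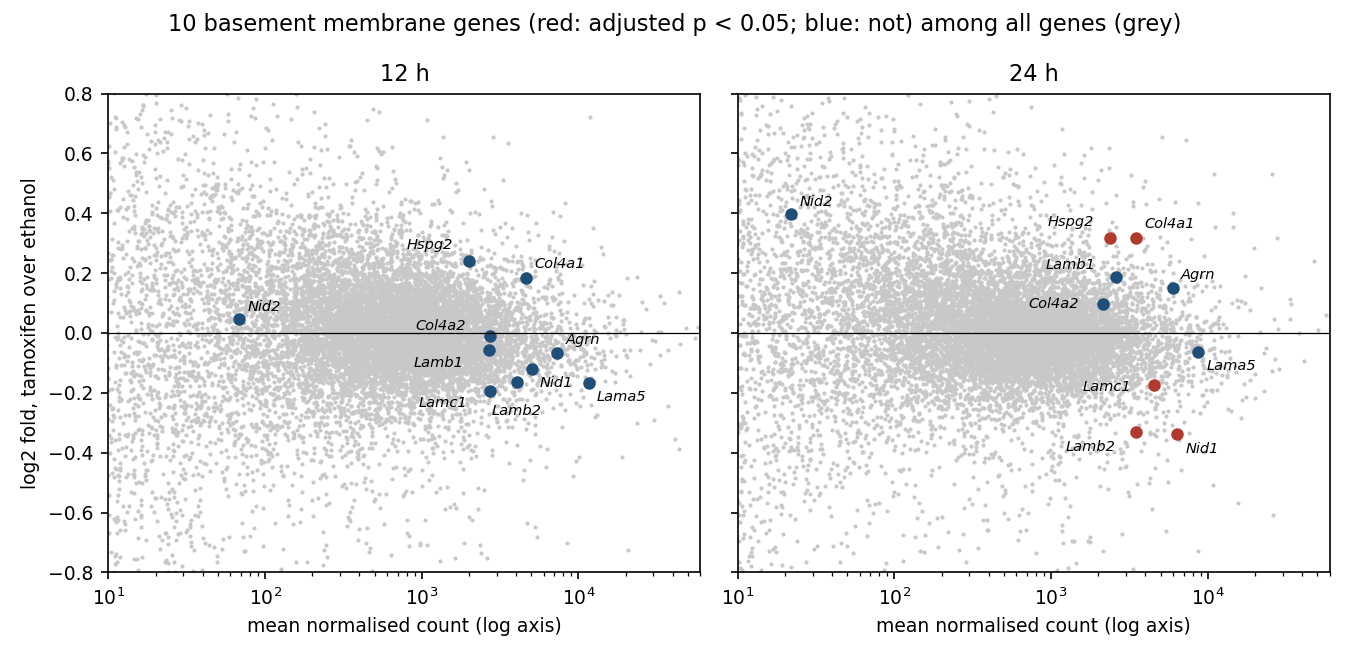
Log2 fold of tamoxifen over ethanol (y axis) against the mean normalised count on a log axis (x axis) at 12 h (left) and 24 h (right), with the 10 genes named in red where called and in blue where not, over all genes with an adjusted p in grey; grey genes beyond a log2 fold of 0.8 or a mean under 10 are not shown. At 24 h Col4a1 and Hspg2 lie above 0 at 0.32 each, and Nid1 at -0.34, Lamb2 at -0.33 and Lamc1 at -0.17 lie below it.

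The times were then set side by side. No library is shared between them. All 5 of the genes called at 24 h had a fold of the same sign at 12 h, as did 90.2% of the 1447 genes of the whole table called at 24 h. Of all 10 genes, 7 kept their sign, and Col4a2, Agrn and Lamb1 were below 0 at 12 h and above 0 at 24 h, uncalled at both. The SE was smaller at 24 h for 9 of the 10 genes, Nid2 being the exception. The called gene with the smallest Wald statistic had 3.50 at 12 h and 2.74 at 24 h in absolute value, so a call of Col4a1 would have needed a log2 fold of 0.39 at 12 h and 0.13 at 24 h. For Lamb2 these sizes were 0.35 and 0.13, and for Nid1 0.53 and 0.15. None of the 10 folds seen at 24 h reached the size needed at 12 h, so the 0 calls at 12 h do not show that the genes were unchanged there.

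The difference of folds, 24 h minus 12 h, was tested over the 14981 genes that had p-values at 12 h and at 24 h. The test called 0.0134% of these genes, and of the 10 genes 0 were called and 0 had an unadjusted p under 0.05. The smallest unadjusted p was that of Agrn, 0.0702, for a difference of 0.22 (SE 0.12), and every adjusted p was 0.9999 by the Wald test of the difference. The differences of the called genes were 0.13 (SE 0.12) for Col4a1, 0.08 (SE 0.17) for Hspg2, -0.22 (SE 0.16) for Nid1, -0.17 (SE 0.11) for Lamb2 and 0.02 (SE 0.17) for Lamc1. The interval for Nid1 spans -0.54 to 0.10 and includes 0. On simulated folds this test recovered 30.5% of genes changed by a log2 of 0.5, more than any difference estimated for the 10 genes. The 0 calls therefore do not show that the folds were the same at both times.

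Weighting both folds by the inverse of their variance gave 1 estimate over all 15 libraries. The same 5 genes were called and the same 5 were not, against 10.5% of 14981 genes called, 4.84% higher and 5.67% lower. For every gene but Nid2 the smaller SE at 24 h gives that time most of the weight. The combined calls are therefore largely a restatement of those at 24 h. The combined log2 fold was 0.30 (SE 0.04) for Col4a1, with an adjusted p of 9.11e-10 in the Wald test of the combined fold. Hspg2 stood at 0.30 (SE 0.06, adjusted p = 5.14e-05 in the same Wald test). On the lower side were Nid1 at -0.31 (SE 0.05, Wald test adjusted p = 1.47e-07), Lamb2 at -0.30 (SE 0.04, Wald test adjusted p = 4.33e-10) and Lamc1 at -0.17 (SE 0.05, Wald test adjusted p = 0.00296). Among the genes not called, Lama5 came closest, at -0.09 (SE 0.05, Wald test adjusted p = 0.297).

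Other genes of the basement membrane were counted in lists, to be read against the 12.4% of all tested genes called at 24 h and the 0.943% called at 12 h. Genes with means of at least 2000 normalised counts were called more often, 23.8% at 24 h and 1.59% at 12 h. Every attached protein called at 24 h has such a mean, as do the called receptors and binders Itga3, Sdc1 and Sdc4. Among further network chains, Lamb3, a beta chain of the hemidesmosomal laminin, fell on the log2 scale of the authors' deposited tables, by 0.75 (SE 0.17) at 12 h and 1.25 (SE 0.26) at 24 h. Both are larger in size than any fold of the 10 genes. The collagen IV chain gene Col4a5 was not called at 24 h, at -0.03 (SE 0.12) in the authors' deposited table. Of 19 measured proteins attached to the networks, 11 had an adjusted p at 24 h, with 2 called higher and 3 lower. In the authors' deposited table Col18a1, which makes endostatin, rose by 0.64 (SE 0.08) and the collagen-binding glycoprotein gene Sparc by 0.49 (SE 0.07). There Npnt (nephronectin, an integrin ligand) fell by 0.73 (SE 0.08), Tinagl1 by 0.53 (SE 0.05) and Fbln2 (fibulin) by 0.90 (SE 0.20), as the authors' deposited table has it. At 12 h 2 of 13 such genes with an adjusted p were called, and the authors' deposited table shows that Npnt fell by 0.71 (SE 0.11) and Fbln2 by 0.65 (SE 0.16).

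Of 17 genes with an adjusted p for folding, export and crosslinking of collagen IV, 2 rose and 1 fell at 24 h, a share near that of all tested genes, and 0 were called at 12 h in the authors' Wald test, where 1 had an unadjusted p under 0.05. Pxdn, the peroxidase that crosslinks collagen IV, rose by 0.20 (SE 0.06) beside Col4a1 and Ctage5, of collagen export, by 0.11 (SE 0.04), and the authors' deposited table shows P4ha2, a prolyl hydroxylase subunit, at -0.40 (SE 0.08), a fall. The collagen chaperone gene Serpinh1 and Lox were listed at 0 at both times. Of 14 receptors and binders with an adjusted p at 24 h, 3 rose and 2 fell. The laminin-binding integrin chain Itga3 rose by 0.44 (SE 0.07), the syndecan Sdc4 by 0.23 (SE 0.06) and the collagen receptor Ddr2, at a low mean of 32.3 normalised counts, by 0.97 (SE 0.26), per the authors' deposited table. Per the same authors' deposited table the syndecan Sdc1 fell by 0.48 (SE 0.04) and the integrin chain Itga7, at a mean of 39.0, by 0.88 (SE 0.24). At 12 h Sdc1 was the 1 called gene of 15, and the authors' deposited table has it fall by 0.38 (SE 0.10). The median log2 folds at 24 h were 0.12 for the 10 genes, -0.12 for attached proteins, 0.01 for collagen IV processing and 0.06 for receptors, beside -0.00040 over all tested genes.

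**Figure D4:**
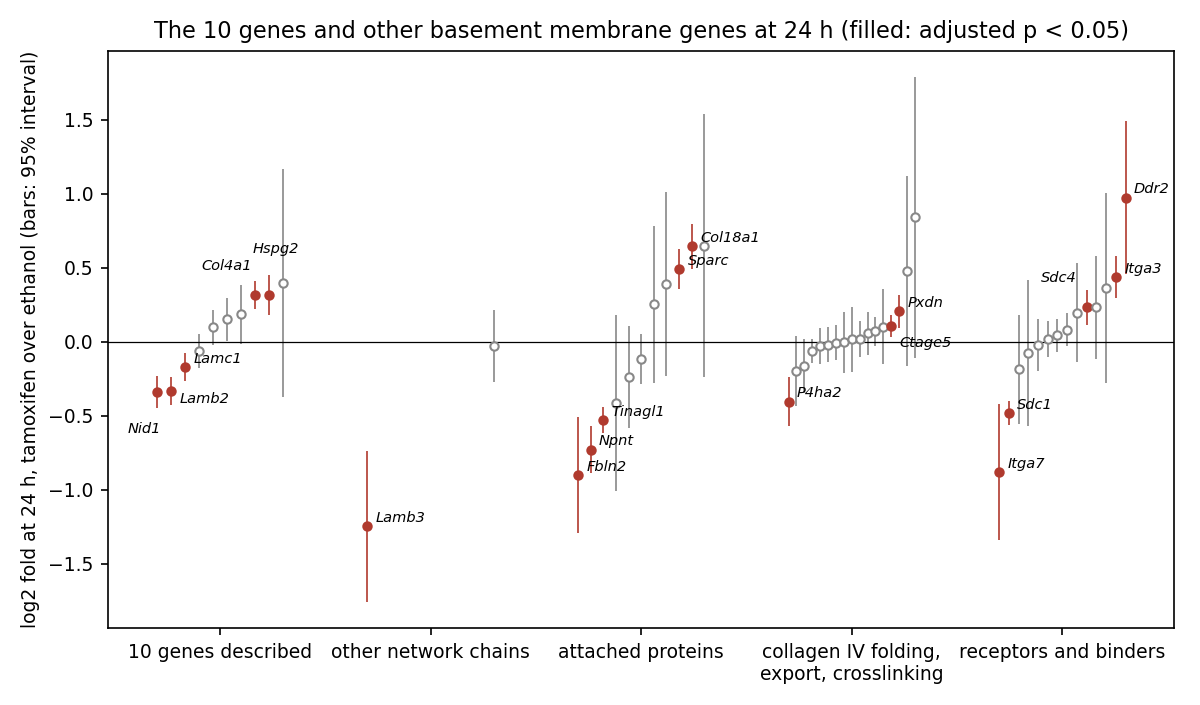
Log2 fold of tamoxifen over ethanol at 24 h (y axis, bars for 95% intervals) for the 10 genes and for genes of 4 lists of other basement membrane genes with an adjusted p, ordered by fold within a list, filled and named where called. Called genes lie on both sides of 0 in the 10 genes, the attached proteins, the collagen IV processing genes and the receptors, and among the other network chains shown Lamb3 lies at -1.25.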

How the data were processed

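Single-end RNA-seq libraries of the mouse line were made with an Illumina TruSeq RNA kit, per the labels' protocols. This kit does not mark strand. HISAT2, DESeq2 and mm10 are named in the submitters' processing notes, with no versions or roles. For the counting tool and the annotation, this is not given in the sources used here. Each of the 2 tables covers 1 time. Per the file headers, the authors deposited the mean normalised count (a signal averaged over libraries), the log2 fold with its SE, the Wald score and a p-value before and after adjustment, so no test per library could be run and the authors' comparison was used in its place. Folds were read as tamoxifen over ethanol: genes with a single read fall on 7 means at 12 h, 3 with negative and 4 with positive folds, as 3 ethanol and 4 tamoxifen libraries require. At 24 h the split is 4 and 4 and does not check it, so the direction was taken to be that of 12 h. Klf5 has a negative fold in both tables. A total of 3 reads over all libraries of a table, the floor of a gene at 0, lies between means of 0.410 and 0.449 at 12 h, and between 0.352 and 0.401 at 24 h.

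A gene counts as called where its adjusted p is below 0.05. The adjusted p is blank for low means, the lowest with one being 1.84 at 12 h and 7.34 at 24 h. Group levels were derived from the mean, the fold and the numbers of libraries, taking the fold as the ratio of group means. Spread between libraries was derived from the SE less counting error, and both cover only what the SEs hold, since reads carry no molecular identifiers and so are not independent molecules. Intervals are 1.96 SE wide on each side. Differences between times and combined folds were tested with normal p-values and Benjamini-Hochberg adjustment over 14981 genes. The calculation was checked on simulated folds drawn with the authors' SEs, which cannot show whether those SEs hold. Of 200 genes changed by a log2 of 0.5 among 9007, the difference test recovered 30.5%, with 1 false call. The combined test recovered 99.0%, with 13 false calls. A change of 0.5 is larger than any difference between times estimated for the 10 genes. Lengths and positions are from GENCODE M21 on GRCm38, and promoter windows from RefSeq on GRCm38.p6, where 8 of the 10 genes matched. Python 3.11.15 with pandas 2.3.3, numpy 2.4.6, scipy 1.17.1 and matplotlib 3.10.9 was used. The 10 genes, the lists, the pairs compared and the tests were chosen with earlier results of these data known, and the background of genes with means of at least 2000 was added after seeing the data. Named genes are Klf5, the 10 genes, and of each list the called genes at 12 h and up to 5 of smallest p at 24 h. Other genes named, as uncalled, at 0, as markers or as overlapping, were named after their values were seen. An item of the list of further network chains is not reported here.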

Additional observations from a re-analysis of the deposited data

How the results depend on the processing

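The counts of the 10 genes called (0 at 12 h, 2 higher and 3 lower at 24 h, 0 for the difference between times, 2 higher and 3 lower for the combined fold) stayed within 1.5 times under every alternative run: adjustment over all genes with a p, thresholds of 0.01 and 0.10, a minimum mean of 100, centred folds, raised SEs and intervals wholly beyond 0.1 on the log2 scale, each where it applies. Under the last of these Lamc1 was no longer called and 2 genes stood lower at 24 h, which is at the limit of 1.5 times. The threshold of 0.01 and the intervals beyond 0.1 can only remove calls, so counts of 0 could not move under them. The same holds for raised SEs in the test of the difference between times. Of 180 values of single folds under these alternatives, 0 changed sign. Most could not, because only centring, and raised SEs for the combined fold, recompute a fold, while the other alternatives change only the call. With the longest transcript as length, the ratio of Col4a1 to Col4a2 at 24 h was 1.57 instead of 1.43, and 9 of 20 levels per kilobase moved by more than the spread between libraries. Over all genes, calls at 24 h numbered 1447, but 854 at a threshold of 0.01 and 961 with intervals beyond 0.1. At 12 h they numbered 123, but 79 at 0.01. Calls for the difference between times numbered 2, but 1 with raised SEs. No paired analysis was possible because the tables hold no value per library. For the same reason leaving out single libraries, edgeR and DESeq2 on counts were not run. Counting error weighs most on Nid2, where it alone would give 56.2% of the SE at 24 h.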

Other observations

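Several basement membrane genes had values that fit no comparison of the report, and they are given as listed, named after they were seen. Lama3, an alpha chain that assembles with Lamb3, had means of 2.58 normalised counts at 12 h and 1.62 at 24 h in the authors' deposited tables, beside 2615 and 853 for Lamb3. Ddr2 had a mean of 1.42 at 12 h and 32.3 at 24 h, and Nid2 68.2 at 12 h and 21.8 at 24 h, in the same deposited tables. Serpinh1 was listed at 0 at both times, beside means of 14719 and 11838 for P4hb, which also acts in collagen folding. The times were normalised separately, and these gaps were not tested.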
